A study of Mus musculus with 40 samples.

Results

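Estradiol (E2) acts on trabecular and on cortical bone, and the question here was whether its effect on gene expression differed between these bones in wild-type mice. The difference was taken as trabecular E2 minus vehicle, minus cortical E2 minus vehicle, over the 20 wild-type arrays of 40 in the series, grouped by their source label. All mice were C57BL/6 females of 15 weeks that had been ovariectomized. One week later they received E2 at 115 µg/kg under the skin or olive oil, and RNA was taken after 18 h. The groups were trabecular bone with E2, trabecular bone with vehicle, cortical bone with E2 and cortical bone with vehicle, with 5 arrays each. Trabecular bone means the vertebral bodies L5 and L6. Cortical bone means flushed shafts of long bones, which the protocol gives as femora and tibiae and the sample characteristics as femur. The other 20 arrays, of mice whose estrogen receptor alpha lacks AF-1, its first activation function, were normalized together with these, and entered a fit for the comparison with that deletion and for 1 alternative. Per the labels it is unknown if 1 mouse gave both bones, and if each replicate was an animal of its own. The p-values therefore measure spread among these samples only, and part of it may be technical.

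E2 enters cells, binds estrogen receptor alpha and, through the receptor's activation functions, changes transcription of its target genes. Loss of ovarian estrogen raises bone turnover and bone is lost at both sites, with trabecular bone usually the faster to respond. Osteoblasts build the matrix, osteocytes within the matrix secrete sclerostin, an inhibitor of Wnt signalling, and osteoclasts resorb bone.

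The labelled tissues were checked against marker genes, with levels given as log2 of normalized intensity. The osteocyte gene Sost was detected on 0 of 5 trabecular E2 arrays and 0 of 5 trabecular vehicle arrays, against 5 and 4 cortical arrays with E2 and vehicle. Dmp1, another osteocyte matrix gene, was also undetected on every trabecular array, whereas Mepe was detected on all 20. The mean of 12 osteocyte genes lay between 8.10 and 8.41 on the trabecular arrays and between 9.19 and 9.95 on the cortical arrays. The 16 osteoblast genes averaged 10.77 to 11.35 on trabecular and 11.64 to 12.37 on cortical arrays. Markers of other tissues were present as well: 16 neutrophil markers averaged 13.00 to 13.49 on trabecular and 12.32 to 13.25 on cortical arrays, and 22 skeletal muscle markers 9.67 to 11.62 and 11.54 to 13.82. In such bulk samples fewer cells of a type and less RNA per cell cannot be told apart. Between 8512 and 11691 probes were detected per array, and the trabecular arrays of BeadChip 1 had 8512 and 8573 against 10357 to 10908 on the other trabecular arrays.

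No gene passed an adjusted p of 0.05 for the difference between the bones (0 of 9044, percent called 0; limma, lowest adjusted p = 0.999531). An unadjusted p under 0.05 was found for 210 genes (2.32%), 87 with a positive difference (0.962%) and 123 with a negative one (1.36%), while about 452 would be reached with no difference in any gene. The median standard error of the difference was 0.31 on the log2 scale with 5 arrays a group. A gene called alone at that error would have needed a difference of 1.89. Smaller differences could be called only at a smaller error or if several genes passed together. The individual genes below are given by their size, error and unadjusted p as a description of where the bones lay furthest apart.

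In each bone alone E2 changed a small set of genes. With limma, 12 of 9044 genes were called in trabecular bone (0.133%; 11 higher and 1 lower) and 21 in cortical bone (0.232%; 20 higher and 1 lower). With the BeadChip as a block these counts were 23 (0.254%) and 32 (0.354%), with one value per BeadChip 6 and 0, and with one BeadChip or array left out 4 to 24 and 6 to 28. Of the 27 genes called in either bone, 6 were called in both: Tmem86a, Fam78b, Myl10, Shox2, Ambp and Loxl1. The sign was the same in cortical bone for 11 of the 12 trabecular calls and in trabecular bone for 21 of the 21 cortical calls. The 6 shared genes are in both counts. For H3c1, H4c12 and H3c4 the trabecular effect was close to 0, at 0.03, 0.03 and 0.04. The share of all genes with the same sign in both bones was not counted, so these counts have no background beside them. Across all genes the E2 effects of the bones had a Pearson r of 0.29 and a Spearman rho of 0.18, which is a description across genes that share BeadChips. For 6 of the 27 genes a whole group was undetected, so that their difference has no fixed size. Of the other 21 the interval of the difference included 0 for 13, and 8 had an unadjusted p under 0.05. Choosing genes by a call on the same arrays favours a larger effect in the bone of the call. The intervals and p-values of these differences are therefore no separate test.

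**Figure D1:**
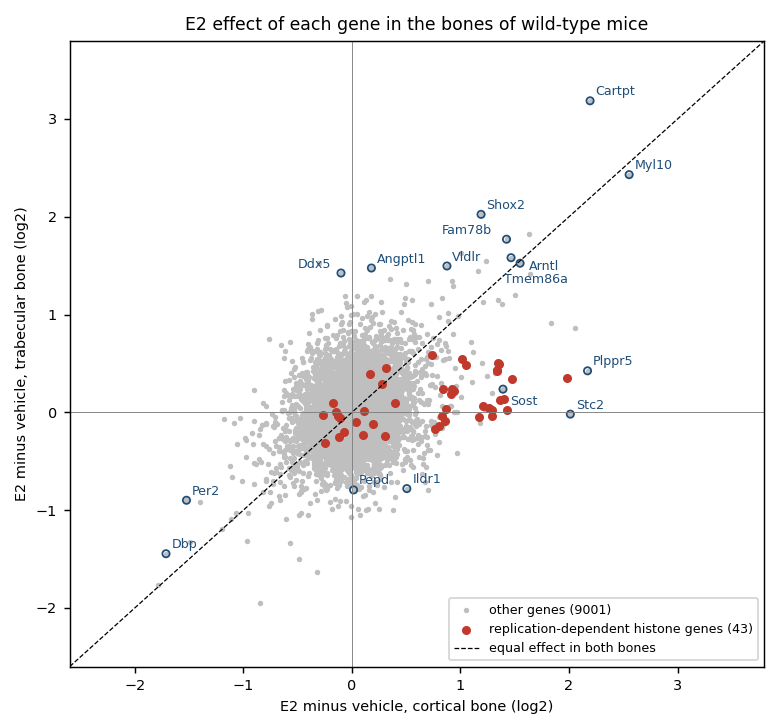
Each point is a gene, with its E2 minus vehicle log2 difference in cortical bone on the horizontal axis and in trabecular bone on the vertical axis (wild type, 5 arrays a group). Genes on the dashed line responded equally, and 35 of the 43 replication-dependent histone genes (red) lie below it.

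Tmem86a, a lysoplasmalogenase of membrane lipid metabolism, had close E2 effects in both bones. In trabecular bone its levels were 11.97, 11.45, 11.35, 11.23 and 11.58 with E2 and 9.49, 9.89, 10.24, 10 and 10.06 with vehicle. In cortical bone they were 11.54, 11.32, 12.03, 11.99 and 11.99 with E2 and 10.27, 10.13, 10.46, 10.21 and 10.49 with vehicle. The E2 and vehicle arrays did not overlap in either bone, and the E2 effects of 1.58 ± 0.18 and 1.47 ± 0.18 (SE) both passed (limma, adjusted p = 9.27e-05 and 0.000532). Their difference of 0.12 had an interval of −0.41 to 0.64. Myl10, a myosin regulatory light chain, differed by −0.12 (−1.15 to 0.90), with effects of 2.43 and 2.55. Fam78b differed by 0.35 (−0.30 to 1.00) and, like Myl10, was detected on 1 of 5 trabecular vehicle arrays. Loxl1, which cross-links elastin and collagen, differed by 0.17 (−0.32 to 0.66), and its cortical call was lost in 24 of 39 alternatives. Ambp, the precursor of alpha-1-microglobulin and bikunin, was undetected on every vehicle array and was at least 1.34-fold higher with E2 in trabecular and at least 1.30-fold higher in cortical bone.

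Shox2, a homeobox gene of limb development, was detected on all 5 trabecular E2 arrays, at 7.97, 7.96, 7.73, 7.64 and 7.57, and undetected on all 5 trabecular vehicle arrays, so that E2 raised it at least 1.96-fold there. In cortical bone it had 9.81, 9.08, 10, 10.17 and 9.92 with E2 and 8.68, 8.87, 8.67, 8.47 and 8.35 with vehicle, a difference of 1.19 ± 0.22 (limma, adjusted p = 0.0191). Its level was higher in cortical bone on every array, and neither size nor direction of a difference between the bones could be set, because of the undetected group.

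Of the genes called in trabecular bone only, Vldlr, the receptor of very low density lipoprotein, rose by 1.5 ± 0.22 there (limma, adjusted p = 0.00215) and had 0.88 ± 0.22 in cortical bone (0.155). The potassium channel Kcnk2 had 1.63 and 1.01, Tex2 0.85 and 0.54, and the neuropeptide precursor Cartpt 3.19 and 2.19 in trabecular and cortical bone. Kcnk2 and Cartpt were each detected on 2 of 5 trabecular vehicle arrays, and Cartpt on 1 of 5 cortical vehicle arrays. The effects of Cartpt in both bones therefore rest partly on values at the detection limit. For these 4 genes the interval of the difference included 0, at 0.62 (−0.03 to 1.27) for Vldlr and 0.99 (−0.76 to 2.74) for Cartpt. The tetraspanin Tspan12 was undetected on the trabecular vehicle arrays and rose at least 1.21-fold there. Of the cortical calls other than histone genes, Grb7, Wnt4 and Gdpd2 had trabecular effects of 1.42, 1.14 and 1.13 beside cortical effects of 1.64, 1.34 and 1.20. The differences of these 3 genes ran from −0.23 to −0.07, and each interval included 0. Wnt4 was detected on 1 of 5 trabecular vehicle arrays, so its trabecular effect rests partly on values at the detection limit. With the BeadChip as a block the trabecular effects of Grb7 and Wnt4 also passed (limma, adjusted p = 0.0428 and 0.0201), while the cortical calls of Wnt4 and Gdpd2 were lost in 23 of 38 and 21 of 39 alternatives. Rasl11a and Lgi2 were undetected on every trabecular vehicle array, so no difference is given. Rasl11a was at least 1.72-fold higher with E2 in trabecular bone, and Lgi2 was detected on 2 trabecular E2 arrays. Per2, a repressor of the circadian clock, had −0.90 ± 0.22 in trabecular bone (limma, adjusted p = 0.157) and fell by 1.52 ± 0.22 in cortical bone (0.00271), a difference of 0.63 (−0.03 to 1.28). Of other clock genes, the activator Arntl had 1.52 and 1.55 and the output factor Dbp −1.45 and −1.71, with differences of −0.02 (−1.08 to 1.03) and 0.27 (−0.97 to 1.51). Arntl passed in both bones with the BeadChip as a block (limma, adjusted p = 0.0412 and 0.0283).

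**Figure D2:**
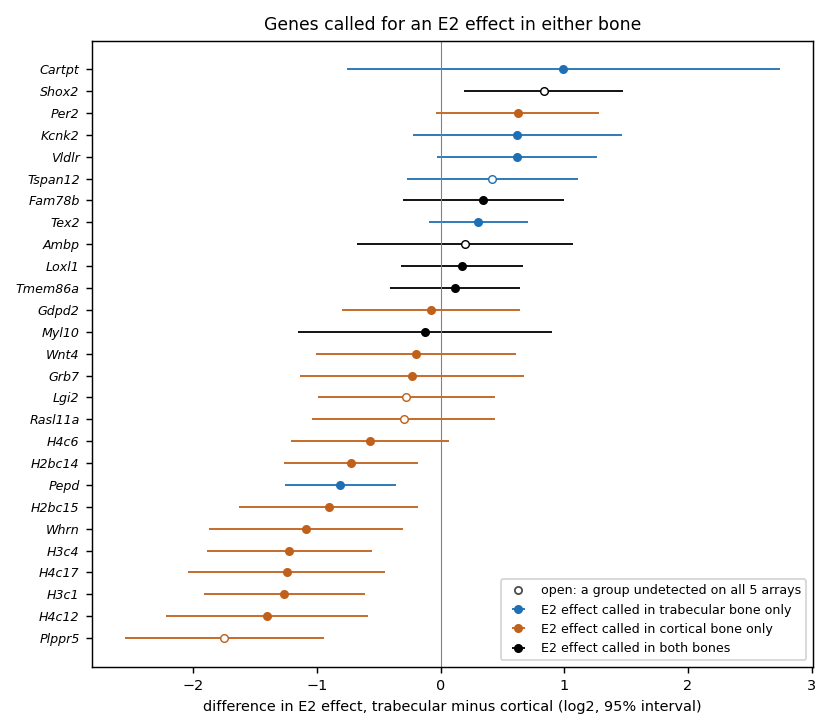
Difference in E2 effect, trabecular minus cortical, with its 95% interval on the log2 axis, for the 27 genes called for an E2 effect in either bone. Open points mark the 6 genes with a group undetected on all 5 arrays, whose fitted difference has no fixed size, and 6 of the 7 histone genes lie below 0 with their whole interval. Choosing genes by a call on the same arrays favours a larger effect in the bone of the call, so the intervals are no separate test.

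Replication-dependent histone genes made up 7 of the 21 cortical calls and none of the trabecular ones. The 43 tested were 0.475% of all genes, of which 0.133% were called in trabecular and 0.232% in cortical bone. These genes supply the H1, H2A, H2B, H3 and H4 proteins that package new DNA in S phase, and their transcripts end in a stem-loop in place of a poly(A) tail. How fully the labelling of RNA captured transcripts without such a tail was not tested, so the probe signal may not follow their amount. The histone genes lie in clusters, of which RefSeq puts 35 of the 43 genes tested on chromosome 13 and 8 on chromosome 3. The family includes near-identical copies, so a probe may bind transcripts of several members and the members are not separate measurements. Promoters of a called member of classes H3, H4 and H2B are printed from RefSeq (GRCm38.p6, 250 bases before to 50 after the gene's start), because these genes moved together in cortical bone. The windows are chr13:23575513-23575812 on the + strand for H3c4, chr13:21750504-21750803 on the − strand for H4c12 and chr13:21753826-21754125 on the + strand for H2bc15. Capitals mark the letters TATAAA and CCAAT on either strand.
H3c4: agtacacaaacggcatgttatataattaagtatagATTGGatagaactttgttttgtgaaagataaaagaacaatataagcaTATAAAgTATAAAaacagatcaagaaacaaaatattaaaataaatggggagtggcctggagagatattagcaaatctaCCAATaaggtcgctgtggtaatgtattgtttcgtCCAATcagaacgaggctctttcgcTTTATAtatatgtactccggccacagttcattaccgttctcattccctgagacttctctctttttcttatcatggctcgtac
H4c12: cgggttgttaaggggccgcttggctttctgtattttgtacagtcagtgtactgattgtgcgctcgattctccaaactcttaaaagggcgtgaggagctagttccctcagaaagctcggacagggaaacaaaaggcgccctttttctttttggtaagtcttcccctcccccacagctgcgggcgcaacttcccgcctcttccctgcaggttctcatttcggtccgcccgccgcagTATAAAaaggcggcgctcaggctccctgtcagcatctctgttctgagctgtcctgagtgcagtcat
H2bc15: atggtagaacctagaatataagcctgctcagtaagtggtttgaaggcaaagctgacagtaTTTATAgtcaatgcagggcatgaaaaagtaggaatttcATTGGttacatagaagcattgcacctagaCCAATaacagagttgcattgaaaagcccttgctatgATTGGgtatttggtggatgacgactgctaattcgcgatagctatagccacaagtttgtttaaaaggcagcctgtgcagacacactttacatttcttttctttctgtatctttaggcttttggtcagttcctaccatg

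Both motifs were searched on both strands, along with the estrogen response half-site AGGTCA and its full palindrome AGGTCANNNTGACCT, which contains the half-site. Of 40 promoters of tested histone genes, 22 held TATAAA (55.0%) and 33 held CCAAT (82.5%), against 13.6% and 37.4% of 32851 promoters. The half-site was in 0 of the 40, against 16.3% of all promoters, and the palindrome in 0 of the 40, against 0.021%. H3c4 held 3 copies each of TATAAA and CCAAT, H4c12 held 1 and 0, and H2bc15 held 1 and 3. These matches describe letters in a 300-base window and say nothing of binding.

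H3c4 had 11.32, 11.55, 11.49, 10.76 and 11.39 in trabecular bone with E2 and 11.02, 10.81, 11.50, 11.42 and 11.54 with vehicle. In cortical bone it had 10.80, 11.26, 11.40, 10.69 and 11.72 with E2, against 9.72, 9.37, 10.21, 9.90 and 10.36 with vehicle. The cortical vehicle arrays were lower than all other 15 arrays. H3c4 had an E2 effect of 0.04 ± 0.23 in trabecular bone (limma, adjusted p = 0.980) and rose by 1.26 ± 0.23 in cortical bone (0.018), and the difference was −1.22 ± 0.32 (unadjusted p = 0.00108).

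H4c12 had 9.90, 10.55, 10.06, 9.08 and 9.88 in trabecular bone with E2 and 10.04, 9.38, 9.88, 9.95 and 10.09 with vehicle. In cortical bone it had 10.03, 9.54, 9.65, 8.82 and 9.96 with E2, against 7.69, 7.68, 8.16, 8.43 and 8.91 with vehicle. All cortical vehicle arrays lay below all trabecular ones, and of the cortical E2 arrays only replicate 4 overlapped them. The trabecular effect was 0.03 ± 0.28, the cortical effect of 1.43 ± 0.28 passed (limma, adjusted p = 0.0311), and the difference between the bones was −1.40 ± 0.39 (unadjusted p = 0.00191). H3c1 gave 0.03 in trabecular and 1.29 in cortical bone, a difference of −1.26 ± 0.31 (unadjusted p = 0.000618). H2bc15 had 0.43 in trabecular and 1.34 in cortical bone and a difference of −0.91 ± 0.35. The other cortical calls were H4c17 (difference −1.24), H2bc14 (−0.72) and H4c6 (−0.57). H1f5, a linker histone, was not called in cortical bone (limma, adjusted p = 0.0754, and 0.00553 with the BeadChip as a block) but had the widest gap of the family, −1.62 ± 0.63. H3c6 (−1.33 ± 0.39) and H2bc12 (−0.87 ± 0.25) were also among the 10 genes of smallest p with negative differences on all 5 BeadChips. With the block H3c6 and H2bc12 passed in cortical bone (limma, adjusted p = 0.00392 and 0.0263), and H2bc14 and H4c6 did not (0.0524 and 0.0757). The 7 cortical calls were lost in 8 (H3c1) to 23 (H4c6) of 39 alternatives of processing or samples.

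By class the pattern was not uniform. All 10 H4 genes had a negative difference, 6 of them at an unadjusted p under 0.05, with a median of −0.90. Of 8 H3 genes 7 were negative and 4 passed that level (median −1.08), and of 11 H2B genes 9 were negative and 6 passed (median −0.72). Of 12 H2A genes 8 were negative and 1 passed (median −0.13), with median E2 effects of −0.11 in trabecular and −0.09 in cortical bone. Over the family of 43 genes 35 were negative (49.9% of all genes tested were) and 18 passed on that side, against a background of 1.36%, while 0 passed on the positive side. The family median was −0.68, beside 0.04 in trabecular and 0.84 in cortical bone. Without 3 genes undetected on every cortical vehicle array, 32 of 40 were negative, 17 passed and the median was −0.70. In cortical bone 26 members had a positive E2 effect at an unadjusted p under 0.05, where 1.96% of all genes did, and in trabecular bone 3 (3.43%). The family was gathered by name after values had been seen. The list of 27 histone genes drawn up earlier, also with results known, had 19 tested, 16 negative, 8 past that level and the same median, −0.68.

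Averaged over the 43 genes, trabecular bone had 10.37, 10.86, 10.61, 10.14 and 10.46 with E2 and 10.10, 10.21, 10.54, 10.51 and 10.56 with vehicle. Cortical bone had 10.40, 10.21, 10.60, 10.09 and 10.42 with E2 and 9.45, 9.47, 9.80, 9.66 and 9.79 with vehicle. The cortical vehicle arrays stood below every other array, and the cortical E2 arrays overlapped both trabecular groups. Within the BeadChips the family's median difference was −0.75, 0.07, −0.76, −0.83 and −0.72, so BeadChip 2 did not show it.

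Other genes linked to proliferation are given beside the histone genes. The 20 mitotic cell cycle genes tested had a median difference of 0.05, with 0.00 in trabecular and −0.20 in cortical bone. Of them 0 had an unadjusted p under 0.05 for the difference. Per BeadChip their median difference was 0.40, 0.44, 0.50, −0.70 and −0.20, so its sign varied. The topoisomerase Top2a had 0.17 ± 0.21 in trabecular and −0.34 ± 0.21 in cortical bone, and the mitotic cyclin Ccnb1 0.12 ± 0.21 and −0.40 ± 0.21. Tyms, which makes thymidylate for DNA synthesis, had 0.27 and −0.17. A set of 8 histone variants with polyadenylated transcripts, chosen after values had been seen, had a median difference of −0.10, and 0 of them had an unadjusted p under 0.05. The share of cells in S phase and RNA quality were not measured here, and their part in the histone result was not tested.

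**Figure D3:**
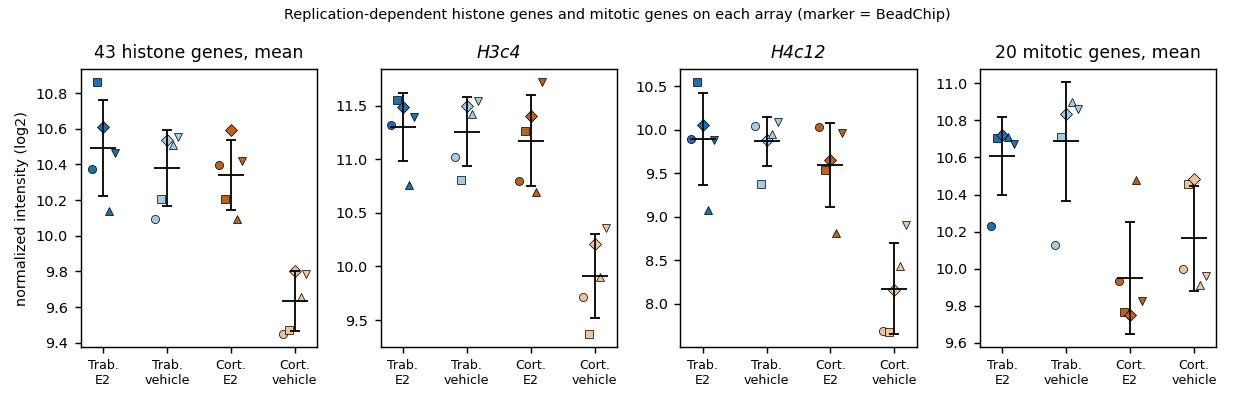
Level on each array (log2 of normalized intensity) of 43 histone genes on average, of H3c4 and H4c12, and of 20 mitotic genes on average, in 4 groups of 5 arrays, with mean and SD as black bars and a marker shape for each BeadChip. In the first 3 panels the cortical vehicle group has the lowest mean, and in the mitotic panel cortical bone averages 9.95 with E2 and 10.17 with vehicle.

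Plppr5, a membrane protein related to lipid phosphate phosphatases, was detected on 5 of 5 cortical E2 arrays, at 7.74, 7.51, 7.90, 7.31 and 8.71, and on none of the other 15 wild-type arrays. E2 raised it at least 2.63-fold in cortical bone (limma, adjusted p = 0.000532), and a trabecular effect, and with it the difference between the bones, could not be sized below the detection limit. It passed the filter on detection through the cortical E2 arrays alone.

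Stc2, the secreted glycoprotein stanniocalcin 2, had the largest difference among the negative ones described here. In trabecular bone it had 5.43, 6.79, 6.25, 6.60 and 6.89 with E2 and 5.51, 6.19, 6.66, 6.73 and 6.97 with vehicle, with 3 of 5 arrays detected in each. In cortical bone it had 7.99, 8.83, 9.10, 8.73 and 10 with E2, all detected, and 5.81, 6.03, 7.13, 7.47 and 8.13 with vehicle, 3 detected. The trabecular groups overlapped, and so did the cortical ones through the lowest E2 and the highest vehicle array. The cortical effect of 2.01 ± 0.43 missed the threshold without the BeadChip as a block (limma, adjusted p = 0.051) and passed with it (0.00111), and the difference was −2.03 ± 0.60 (−3.28 to −0.78, unadjusted p = 0.00295). Within the BeadChips it was −2.25, −2.20, −2.38, −1.39 and −1.94, and with the block its adjusted p was 0.0785.

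Sost had 8.56, 8.72, 9.25, 8.83 and 9.70 in cortical bone with E2 and 6.17, 7, 8.37, 7.98 and 8.58 with vehicle, while no trabecular array detected it. The lowest E2 array lay just under the highest vehicle array. Its cortical effect of 1.39 ± 0.34 did not pass (limma, adjusted p = 0.131) except with the BeadChip as a block (0.0491), and no trabecular effect could be measured. The secreted Wnt antagonist Sfrp2 was likewise undetected in trabecular bone and had 0.84 ± 0.24 in cortical bone (limma, adjusted p = 0.346). Dusp3, a dual-specificity phosphatase, was detected on 0 trabecular, 5 cortical E2 and 2 cortical vehicle arrays.

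Some genes had effects of opposite sign in the bones, among them Ildr1 and Tepsin and, below, Spn, Dipk2a, Cyp4v3 and Col1a1. These genes were picked by a small p of the difference, which favours opposite signs. None of their effects was called in either bone. The share of all genes with opposite signs was not counted, and E2 effects were positive for 49.2% of genes in trabecular and 49.3% in cortical bone. Ildr1, a protein of tricellular junctions, was detected on 0 trabecular E2 arrays and 4 trabecular vehicle arrays, and was at least 1.14-fold lower with E2. In cortical bone it was detected on 3 E2 and 2 vehicle arrays, with an effect of 0.51 ± 0.22, and the difference has no fixed size. Tepsin, an accessory protein of the adaptor complex AP-4, had −0.79 in trabecular and 0.70 in cortical bone, a difference of −1.49 ± 0.44, but was detected on only 2 and 4 trabecular and 3 and 1 cortical arrays with E2 and vehicle.

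Pepd, prolidase, which splits proline dipeptides released from collagen, was the single gene called lower with E2 in trabecular bone. It had 7.34, 7.06, 7.42, 7.05 and 7.26 with E2 and 8.41, 7.94, 7.65, 7.89 and 8.21 with vehicle in trabecular bone, with no overlap. The cortical arrays had 7.54, 7.18, 7.53, 7.36 and 7.08 with E2 and 7.23, 7.14, 7.27, 7.42 and 7.56 with vehicle, which overlapped. The effects were −0.79 ± 0.15 (limma, adjusted p = 0.0312) and 0.01 ± 0.15, and the difference was −0.81 ± 0.22 (unadjusted p = 0.00124). The trabecular call was lost in 18 of 38 alternatives. The remaining cortical call was Whrn, a scaffold protein of hair cells, with a trabecular effect of 0.20 ± 0.27, a cortical effect of 1.29 ± 0.27 (limma, adjusted p = 0.0447) and a difference of −1.09 ± 0.38. Its call was lost in 22 of 39 alternatives.

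**Figure D4:**
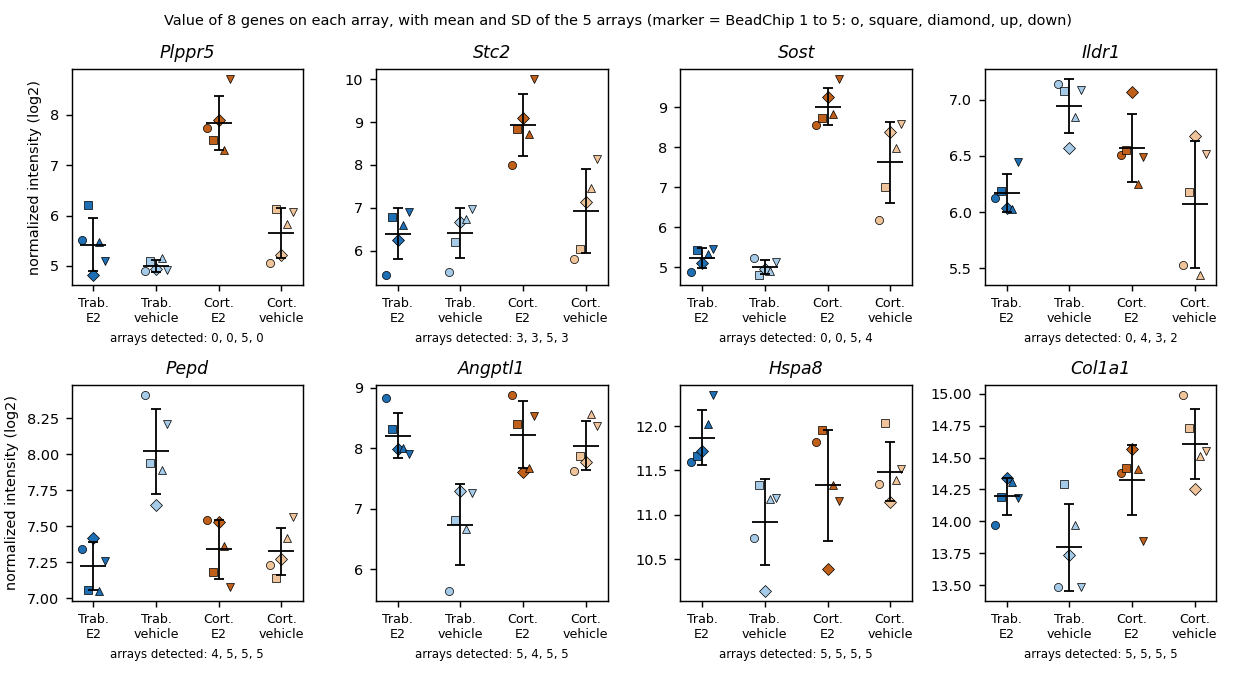
Level on each wild-type array (log2 of normalized intensity) of 8 genes in trabecular E2, trabecular vehicle, cortical E2 and cortical vehicle bone, with mean and SD as black bars and the number of arrays with detection under each panel. Plppr5 stands apart in the 5 cortical E2 arrays and Pepd in the 5 trabecular vehicle arrays.

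On the positive side, E2 effects were higher in trabecular bone. Angptl1, a secreted angiopoietin-like protein, had 8.83, 8.31, 7.99, 8.01 and 7.91 with E2 and 5.64, 6.81, 7.29, 6.67 and 7.26 with vehicle in trabecular bone. In cortical bone it had 8.88, 8.40, 7.61, 7.68 and 8.54 with E2 and 7.63, 7.87, 7.78, 8.57 and 8.37 with vehicle. The trabecular groups did not overlap and the cortical ones did, and the trabecular vehicle arrays lay below all other arrays. The trabecular effect was 1.48 ± 0.31 (limma, adjusted p = 0.0534), the cortical one 0.18 ± 0.31 and the difference 1.30 ± 0.43 (unadjusted p = 0.007).

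Hspa8, a constitutive chaperone of the HSP70 family, had 11.60, 11.66, 11.72, 12.02 and 12.35 with E2 and 10.74, 11.33, 10.14, 11.18 and 11.19 with vehicle in trabecular bone, without overlap. Its cortical groups overlapped, at 11.82, 11.96, 10.39, 11.33 and 11.15 with E2 and 11.35, 12.03, 11.14, 11.39 and 11.52 with vehicle. The difference was 1.11 ± 0.39 (unadjusted p = 0.0093). Another chaperone, Hsp90ab1, had the opposite sign, −0.55 ± 0.20, so the chaperone list as a whole did not move one way. The RNA helicase Ddx5, a known coactivator of estrogen receptor alpha, had effects of 1.42 ± 0.37 and −0.10 ± 0.37 and a difference of 1.53 ± 0.52. It was detected on 4 trabecular E2 arrays, 1 trabecular vehicle array and 4 arrays of each cortical group, and cortical E2 replicate 3 had 5.41, with the other 4 between 7.08 and 7.53. The surface sialoprotein Spn (1.52 ± 0.54), Dipk2a (1.20 ± 0.40) and Rmnd5b, a subunit of a ubiquitin ligase (0.79 ± 0.26), also had positive differences on all 5 BeadChips, as did 2.02% of all genes, while 3.26% were negative on all 5. Spn was detected on 1, 1, 1 and 4 arrays of trabecular E2, trabecular vehicle, cortical E2 and cortical vehicle bone, and Dipk2a on 3, 1, 4 and 4, so these differences rest partly on values at the detection limit. The cytochrome P450 Cyp4v3 (0.72 ± 0.23), the JNK scaffold Sh3rf1 (0.61 ± 0.21) and the polyadenylation factor Pcf11 (0.58 ± 0.21) were also among the 10 with the smallest p of these.

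Collagen, matrix and osteoblast genes had mostly positive differences, given here without a test. Of 28 collagen and matrix genes tested 22 were positive for the difference, where 50.1% of all genes were, and their median was 0.31 beside 0.00 over all genes. One of them had an unadjusted p under 0.05. The median E2 effect of the list was 0.49 in trabecular and 0.04 in cortical bone. In trabecular bone 10 of the 28 had a positive effect at an unadjusted p under 0.05 (background 3.43%), and in cortical bone 5 (1.96%). The member past that level was Col1a1, the main collagen chain of bone. Its trabecular values were 13.97, 14.19, 14.34, 14.31 and 14.18 with E2 and 13.49, 14.29, 13.74, 13.97 and 13.49 with vehicle, and its cortical values 14.38, 14.42, 14.57, 14.41 and 13.85 with E2 and 14.99, 14.73, 14.25, 14.51 and 14.55 with vehicle. Both pairs overlapped, and the difference was 0.68 ± 0.25 (unadjusted p = 0.0132).

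Of 16 osteoblast genes 13 had a positive difference (median 0.28; 0.31 in trabecular and 0.10 in cortical bone). Bone sialoprotein (Ibsp) had 0.67 ± 0.14 in trabecular bone (limma, adjusted p = 0.0534, and 0.0499 with the BeadChip as a block) and 0.30 ± 0.14 in cortical bone, and Sp7, a transcription factor of osteoblasts, 0.40 and 0.07. The osteocalcin genes gave −0.05 (Bglap2) and 0.29 (Bglap3) for the difference. RANKL (Tnfsf11), which drives osteoclast formation, had 0.73 ± 0.30 and 0.03 ± 0.30, and its decoy receptor osteoprotegerin (Tnfrsf11b) −0.13 ± 0.33 and 0.41 ± 0.33. The intervals of their differences were −0.18 to 1.59 and −1.51 to 0.43. Esr1, the gene of the receptor, had −0.68 ± 0.21 in trabecular and −0.15 ± 0.21 in cortical bone, neither of which passed (limma, adjusted p = 0.438 and 1.000).

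Markers of muscle and of the bone surface varied with the BeadChip beside these lists. Of 22 skeletal muscle markers 21 were positive for the difference (median 0.55), but per BeadChip the list's median difference was −0.73, 0.12, −1.62, 3.31 and 1.90. In cortical bone their mean level was 13.82, 13.63, 13.57, 11.54 and 11.72 with E2 and 12.29, 12.35, 12.49, 13.76 and 13.48 with vehicle, so that E2 arrays were higher on BeadChips 1 to 3 and lower on 4 and 5. Without replicate 4 the list's median was −0.08. Periosteum and fibroblast markers had −0.60, −0.11, −1.71, 2.17 and 0.95 per BeadChip (12 tested, 7 positive, median 0.21). The matrix list had 0.04, 0.38, −0.60, 0.88 and 0.25, the osteoblast list 0.15, 0.24, −0.04, 0.14 and 0.09. Cartilage markers had −3.21 on BeadChip 1 and −0.89 to 0.74 on the others (7 tested, 1 positive, median −0.74), and 3 of the 7 were undetected on every cortical E2 array. The part of muscle, periosteum or cartilage in these differences was not tested.

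The other lists held few genes past an unadjusted p of 0.05. In bone and signalling lists, the median difference was −0.04 for 12 osteocyte genes, 0.12 for 12 osteoclast genes, 0.04 for 19 Wnt genes, 0.04 for 19 estrogen-responsive genes and 0.00 for 14 circadian clock genes. It was 0.15 for 14 genes of the IGF axis, 0.06 for 16 TGF-beta and BMP genes, 0.10 for 11 genes of RANKL, osteoprotegerin and related cytokines, −0.40 for 5 secreted calcium or phosphate regulators, Stc2 among them, and −0.35 for 6 retinoic acid genes. Of the Wnt list, the inhibitor Wif1 had 0.78 ± 0.37, and the 2 members with negative differences past that level were Sfrp2 and Sost, both undetected in trabecular bone. Among stress and metabolism lists it was −0.22 for 14 immediate early genes (12 negative), 0.05 for 13 glucocorticoid-responsive genes, 0.13 for 20 chaperone genes, −0.05 for 14 interferon-response genes and −0.17 for 11 fatty acid synthesis genes.

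Of marrow and vessel cell types, T and NK cell markers had a median difference of −0.33, with 7 of 9 negative, −0.42, 0.29, 0.18, −1.34 and −0.74 per BeadChip, and 3 of 9 positive in trabecular and 8 of 9 in cortical bone. Over the alternatives it ran from −0.56 to −0.12. The other medians were 0.11 for 11 B-lineage, 0.20 for 16 neutrophil, −0.01 for 12 monocyte and macrophage, −0.10 for 14 erythroid, −0.04 for 11 megakaryocyte, −0.06 for 9 adipocyte, 0.20 for 15 endothelial and 0.13 for 14 marrow stromal markers. The T cell receptor chain Cd3e (−0.79 ± 0.36) and the macrophage chemokine receptor Cx3cr1 (−0.88 ± 0.39) were the members past an unadjusted p of 0.05. Among osteoclast genes it was the fusion protein Dcstamp (0.91 ± 0.43).

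Some lists had median E2 effects of one sign in both bones, given here without a test. Of 14 circadian clock genes 5 in trabecular and 6 in cortical bone had a negative E2 effect at an unadjusted p under 0.05, where 2.74% and 1.40% of all genes did, and the list's median effect was −0.34 and −0.33. Of 13 glucocorticoid-responsive genes 1 in trabecular and 0 in cortical bone had a positive effect, against 49.2% and 49.3% of all genes, with medians of −0.20 and −0.24. Of 11 megakaryocyte and platelet markers 11 and 10 were positive, with medians of 0.19 and 0.31. The cortical medians varied by BeadChip, with an SD of 0.65 for the clock, 0.69 for the glucocorticoid and 0.68 for the megakaryocyte list. In trabecular bone these SDs were 0.32, 0.13 and 0.25. With E2 the cortical mean level of the megakaryocyte list was higher on BeadChips 1, 4 and 5 and lower on 2 and 3. That of the clock list was lower on all but BeadChip 1, and that of the glucocorticoid list on all but BeadChip 2.

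**Figure D5:**
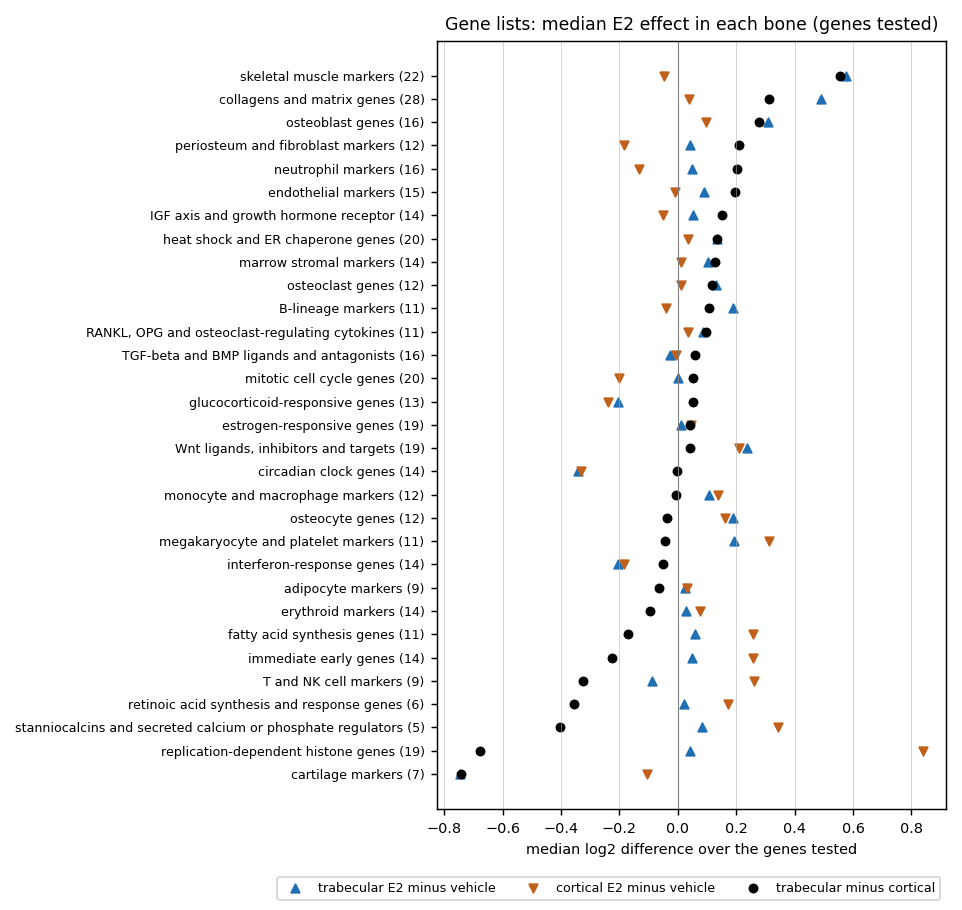
Median log2 difference over the tested genes of each list, for the E2 effect in trabecular bone (blue triangles), in cortical bone (orange triangles) and for trabecular minus cortical (black circles). The histone list has a trabecular median of 0.04 and a cortical median of 0.84, and the matrix list 0.49 and 0.04.

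In mice lacking AF-1 the same difference was taken on the other 20 arrays, in one limma fit of all 40. No gene was called for it (0 of 9451, percent called 0; 202 with an unadjusted p under 0.05, 2.14%), and none for wild type minus AF-1-deleted (0 of 9451, percent called 0; 206, 2.18%). Over 44 histone genes the median was −0.64 in wild type in this fit, with 15 at an unadjusted p under 0.05 on the negative side (background 1.57%). In AF-1-deleted bone it was −0.15, with 1 at that level (background 0.963%). The gap between the genotypes had a median of −0.42, with 4 genes past that level on the negative side (background 1.30%). The histone mean level was 9.85, 10.59, 9.76, 9.96 and 9.60 in AF-1-deleted cortical bone with E2 and 9.80, 9.75, 9.56, 9.92 and 10.39 with vehicle, and these groups overlapped.

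Plppr5 was undetected on all 20 AF-1-deleted arrays, so no difference could be sized there. The genes given here and the histone family were chosen with wild-type values known. Those values are part of the gap between the genotypes, so its unadjusted p-values describe it and are no separate test. For Stc2 the AF-1-deleted arrays gave −0.27 ± 0.57 and the gap between the genotypes was −1.77 ± 0.81 (unadjusted p = 0.0361). In that genotype Stc2 had 7.54, 8.40, 7.95, 6.95 and 8.97 in cortical bone with E2, against 5.85, 7.06, 7.10, 6.62 and 7.43 with vehicle. The Stc2 difference and the gap also rest on the AF-1-deleted trabecular arrays, whose values are not listed here. For H3c4 the AF-1-deleted difference was −0.05 ± 0.40, for Pepd 0.08 ± 0.26, for Angptl1 −0.27 ± 0.44 and for Hspa8 −0.89 ± 0.67. The gap between the genotypes was 2.00 ± 0.94 for Hspa8 (unadjusted p = 0.0402). None of these passed the adjusted threshold (limma, adjusted p = 1.000).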

How the data were processed

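Biotin-labelled RNA was read on 40 arrays of 5 Illumina BeadChips, each with 8 arrays. The deposited table holds probe intensity from GenomeStudio, per the submitters' processing notes, with a detection p-value per probe, per the file headers. These deposited intensities are not background-corrected or normalized, judged from the values. A second deposited table holds the authors' normalized intensity, used as an alternative. The sources used here do not say how it was normalized. Of 25697 probes, 20733 were named by a current symbol, 3 in other letter case, 3906 by a synonym and 1055 as in the file, giving 17914 genes.

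With limma's neqc (limma 3.58.1, statmod 1.5.0, R 4.3.3), background was removed using detection p-values, an offset of 16 was added, and all 40 arrays were quantile-normalized and put on the log2 scale. Probes detected (p under 0.01) on at least 5 of the 20 wild-type arrays were kept, with the brightest per gene (9044 genes). Group means of the 20 arrays were fitted (lmFit, eBayes) and p-values adjusted by Benjamini and Hochberg. The fit was tested on simulated arrays with independent errors, which leave out what arrays of a BeadChip share. Errors of log2 differences are standard errors of the fit, and intervals cover 95%. Where a gene was undetected on all arrays of a group, its fold is a lower bound against the dimmest detected signal. Signal over background and the number of arrays limit the precision, and no 2 arrays were identical.

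The replicate number is the BeadChip, per the titles, so same-numbered arrays share it. Residuals of same-numbered arrays correlated at 0.00947 to 0.322 on average per BeadChip (lowest pair −0.581), those of different numbers at −0.0246, and 10 of 20 arrays were closest to their own number. The BeadChip block was an alternative.

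Named genes were those called, the 10 smallest p in each direction with 1 sign on 5 BeadChips, up to 12 called for E2 in each bone, 15 fixed names and up to 3 of each list, plus histone genes and the remaining E2 calls; 1 gene under this rule is not reported here. Of the fixed names, Gsk3a was not past the filter and Bglap was not matched. The 31 lists held 570 genes, 526 on the array and 400 tested. Members and lists were chosen with earlier results of these data known. Lists are described by counts and medians with no test.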

Additional observations from a re-analysis of the deposited data

Results flagged for a closer look

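Of 100 groups of 5 arrays examined for a single distant array, 5 had one, and chance gives about 1 in 20. Col1a1 had 13.85 on cortical E2 replicate 5, with the others from 14.38 to 14.57. Ddx5 had 5.41 on cortical E2 replicate 3, with the others from 7.08 to 7.53. The mean of the mitotic cell cycle genes was distant on 3 arrays: 10.232 on trabecular E2 replicate 1 (the others 10.675 to 10.72), 10.126 on trabecular vehicle replicate 1 (10.71 to 10.9) and 10.477 on cortical E2 replicate 4 (9.753 to 9.933). Both trabecular arrays are on BeadChip 1, whose trabecular arrays also detected the fewest probes. The cause was not tested.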

How the results depend on the processing

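Over 39 alternatives the difference between the bones had 0 called genes in all but 2: all 40 arrays in one fit gave 1 (Plppr5, undetected in all groups but cortical E2, adjusted p = 0.0191), and leaving out BeadChip 1 with the replicate block gave 1 (H1f5, −1.91, adjusted p = 0.0334). The replicate block alone gave 0. Its count at an unadjusted p under 0.05 ran from 54 after median scaling to 495 with no filter. The trabecular E2 count of 12 became 23 with the replicate block, 6 with one value per BeadChip, 19 with 40 arrays, 6 after median scaling, 4 with detection on all arrays and 52 with array weights. Leaving out one BeadChip or array gave 4 to 24: 6 without replicate 2, 4 without replicate 3 or 4, and 20 and 24 without cortical E2 replicates 3 and 5. The cortical count of 21 became 32 with the replicate block, 0 with one value per BeadChip, 9 after median scaling and 33 without BeadChip 1 and with the block. Leaving out one BeadChip or array gave 6 to 28: 13, 12, 7 and 7 without replicates 1, 2, 3 and 5, 13, 6 and 8 without cortical E2 replicates 2, 3 and 5, and 7, 11, 8 and 11 without cortical vehicle replicates 1 to 4. The causes were not tested. Of 163 named genes, 122 kept the sign of their difference throughout and 41 did not. Median scaling moved the median difference of all genes to −0.14, against which the histone median of −0.90 to −0.38 over the alternatives and the matrix median of 0.11 to 0.43 kept their signs. The histone count of 18 fell to 11 after median scaling or without replicate 3. The osteoblast median ran from 0.03 to 0.38, and the muscle median from −0.08 without replicate 4 to 1.11 without replicate 3. Cortical calls were kept in 37 of 38 alternatives for Plppr5, 31 of 39 for H3c1, 29 for H3c4, 26 for H2bc15, 24 for H4c12, 19 for H4c17, 17 for H2bc14 and 16 for H4c6.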
